A study of Mus musculus with 24 samples.

Results

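The genes described here are 10 mouse heat shock chaperones: Hspa1a, Hspa1b, Dnajb1, Hsph1, Hspa8, Hsp90aa1, Hspb1, Hspb8, Cryab and Hspa5. They were named as a list of heat shock genes and found in the count data by matching gene identifiers to GENCODE mouse symbols. All 10 were present among the 55487 identifiers, and all 10 passed the filter on low counts in every comparison. Their transcript levels per mouse were used to ask whether tissue exposed to near-infrared light showed a heat response at dissection, and whether running did.

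Male wild-type C57BL/6J mice, 5 to 7 weeks old, received 830 nm photobiomodulation therapy (PBMT) on their shaved lower limbs from light-emitting diodes, at 25 mW/cm2 for 20 min and 30 J/cm2 in all, under anesthesia. Control mice were shaved and anesthetized for as long, without light, and there was neither a sham-light nor a heated group. By the paper's account, core temperature was followed in both groups, and a fan was used where needed against heating by the light. The 24 mice formed 4 groups of 6, with PBMT or without it (control), each in mice that later ran (fatigued) and in mice that did not (sedentary). Fatigued mice ran to exhaustion on an inclined treadmill 24 h after PBMT or anesthesia alone, and their left tibialis anterior (TA) muscle was taken directly after the run. Sedentary mice gave the same muscle at 24 h without the run. Each muscle gave 1 poly(A) RNA library. Run times of single mice were not used here, and muscle was sampled at no other time after light.

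Chaperones bind unfolded proteins and help them to fold, or pass them on for degradation. When unfolded proteins build up, as under heat, heat shock factor 1 is freed from chaperones, binds heat shock elements in promoters and raises transcription of inducible chaperone genes. Muscle fibers also hold large amounts of small heat shock proteins at rest, which protect the contractile apparatus, whereas the endoplasmic reticulum (ER) has its own chaperones, controlled by the unfolded protein response.

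Sedentary control libraries held 43271093 to 46904076 counts (median 45278264) and sedentary PBMT libraries 46327516 to 52775844 (median 49421795). The fatigued libraries were deeper, with 56792327 to 68726155 counts in controls (median 61892167) and 53122528 to 68566029 with PBMT (median 60228908). These totals exceed the read pairs per library that the labels state, and whether counts are of reads or of pairs is not given. Levels are given as CPM, a gene's count scaled by the TMM-normalized total of its library to a common size. The smallest count of any of the 10 genes in any mouse was 45, for Hspa1b in a sedentary PBMT mouse. Sedentary and fatigued mice were sequenced as 2 separate projects, so the run and the project cannot be told apart in any comparison between them. Comparisons of PBMT with control stayed within a project. Since RNA came from whole muscle, fewer cells of a type and less RNA per cell cannot be told apart.

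One library stood apart from its group. In sedentary control replicate 4, 3.24% of counts fell on mitochondrially encoded genes, against 15.5% to 17.0% in the other sedentary controls. The share was 13.8% to 17.1% in sedentary PBMT mice, 10.5% to 12.9% in fatigued controls and 10.7% to 12.1% in fatigued PBMT mice. No 2 of the 24 libraries were alike within sampling noise (276 pairs, smallest chi-square per degree of freedom 13.1 over 11839 genes). The tissue label matched the markers of fast fibers, all 12 of which were detected, with a summed level of 166178 ± 27373 CPM (SD, n = 6) in sedentary controls, whereas 6 keratinocyte markers summed to 2.94 ± 1.38 CPM (SD, n = 6).

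The inducible cytosolic chaperones came first. Hspa1a (ENSMUSG00000091971, chr17:34969190-34972156, minus strand; GRCm38, GENCODE M21, as for all positions of genes) encodes an inducible HSP70 that refolds cytosolic proteins. Its level was lowest at 1.55, median 1.84 and highest 2.25 CPM in sedentary controls, and 1.68, 2.14 and 2.68 CPM in sedentary PBMT mice. In fatigued controls it was 6.25, 18.1 and 157 CPM, and in fatigued PBMT mice 18.0, 21.6 and 69.4 CPM. Every fatigued mouse lay above every sedentary mouse, and within each project the PBMT and control groups overlapped. Fatigued controls were spread most widely, from replicate 5 at 6.25 CPM through replicates 1 and 4 (8.96 and 9.67 CPM) and replicates 2 and 3 (26.6 and 48.6 CPM) to replicate 6 at 157 CPM. Of the fatigued PBMT mice, replicates 3 and 4 stood high at 56.6 and 69.4 CPM, and the other 4 lay between 18.0 and 23.7 CPM.

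Hspa1b (ENSMUSG00000090877, chr17:34956436-34959238, minus strand), the neighbouring HSP70 gene with a nearly identical product, was highest in the same pair of mice, fatigued control replicate 6 and fatigued PBMT replicate 4. Its lowest, median and highest levels were 1.31, 1.45 and 2.28 CPM in sedentary controls and 0.901, 1.603 and 2.34 CPM in sedentary PBMT mice. In fatigued controls they were 5.19, 13.9 and 143 CPM, and in fatigued PBMT mice 13.3, 17.8 and 60.5 CPM. Again all fatigued mice lay above all sedentary mice, with fatigued control replicate 6 highest and replicate 5 lowest among the fatigued. Of the 150-base words in the Hspa1a transcripts, 38.1% also occur in Hspa1b, and 40.5% of those of Hspa1b in Hspa1a, so the split of reads between the pair is uncertain. In all, 46% and 40.5% of their words occur in other genes, among them Hspa1l, which shares 2.98% and 1.47% and averaged 20.6 to 25.8 CPM over the groups. The summed level of the pair avoids the split between them, but not the words shared with Hspa1l, and was 2.86, 3.51 and 4.44 CPM in sedentary controls, 2.58, 3.72 and 4.72 CPM in sedentary PBMT mice, 11.4, 32.0 and 301 CPM in fatigued controls, and 32.6, 38.9 and 130 CPM in fatigued PBMT mice. The sum separated fatigued from sedentary mice as each gene did. Hspa1a also overlaps Gm20481 on the opposite strand, which reached at most 0.119 CPM.

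Dnajb1 (ENSMUSG00000005483, chr8:83608193-83612653, plus strand) encodes an inducible HSP40 that delivers substrates to HSP70. Its lowest, median and highest levels were 6.30, 6.74 and 7.65 CPM in sedentary controls and 4.55, 6.01 and 6.80 CPM in sedentary PBMT mice. In fatigued controls they were 6.26, 11.6 and 31.8 CPM, and in fatigued PBMT mice 7.49, 10.3 and 21.6 CPM. Among controls the fatigued and sedentary groups overlapped, since fatigued replicates 1 (6.26 CPM) and 5 (7.39 CPM) lay within or under the sedentary range. Among PBMT mice they did not overlap. Fatigued control replicate 6 was again the highest mouse, and fatigued PBMT replicates 3 and 4 came next.

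Hsph1 (ENSMUSG00000029657, chr5:149614287-149636376, minus strand) encodes HSP110, a nucleotide exchange factor for HSP70. Sedentary controls had a lowest level of 34.7, a median of 38.4 and a highest of 51.4 CPM, and sedentary PBMT mice 33.7, 42.1 and 48.0 CPM. Fatigued controls had 53.8, 66.0 and 72.9 CPM, and fatigued PBMT mice 55.3, 66.5 and 77.3 CPM. All fatigued mice lay above all sedentary mice, but without the long upper tail of Hspa1a, and the highest mice were replicate 4 in 3 groups (both controls and fatigued PBMT) and replicate 6 in sedentary PBMT.

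Next came a constitutive HSP70 gene and an HSP90 gene. Hspa8 (ENSMUSG00000015656, chr9:40800984-40810087, plus strand) encodes HSC70, the HSP70 present in unstressed cells. Its lowest, median and highest levels were 622, 650 and 728 CPM in sedentary controls, 602, 642 and 730 CPM in sedentary PBMT mice, 912, 1048 and 1186 CPM in fatigued controls, and 947, 1040 and 1196 CPM in fatigued PBMT mice. Fatigued and sedentary mice did not overlap, and PBMT and control mice covered nearly the same ranges. Of its 150-base words, 23% occur in other genes, and those counted averaged at most 6.15 CPM in any group. Hsp90aa1 (ENSMUSG00000021270, chr12:110690605-110702728, minus strand) encodes the inducible cytosolic HSP90, a chaperone of kinases and steroid receptors. It was tightly held in sedentary muscle, with 33.5, 35.3 and 36.9 CPM in controls and 31.3, 35.6 and 40.2 CPM with PBMT. In fatigued controls it was 58.1, 61.6 and 119 CPM, and in fatigued PBMT mice 61.5, 63.7 and 83.0 CPM. Every fatigued mouse was above every sedentary mouse, and the mice with the most Hspa1a were highest, control replicate 6 at 119 CPM and PBMT replicate 4 at 83.0 CPM. It shares 28.5% of its 150-base words with other loci, none of which averaged over 0.449 CPM in any group.

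The small heat shock proteins hold unfolding proteins without using ATP. Hspb1 (ENSMUSG00000004951, chr5:135887919-135889563, plus strand), which encodes HSP25 and guards actin filaments, had lowest, median and highest levels of 44.4, 51.7 and 82.8 CPM in sedentary controls and 46.7, 53.0 and 64.9 CPM in sedentary PBMT mice. In fatigued controls these were 93.1, 109 and 183 CPM, and in fatigued PBMT mice 99.3, 129 and 198 CPM. No fatigued mouse fell into the sedentary range, although sedentary control replicate 4, the library with few mitochondrial counts, stood high in its group at 82.8 CPM. Of its 150-base words, 39.1% occur in other loci, which averaged at most 1.14 CPM in any group. Hspb8 (ENSMUSG00000041548, chr5:116408491-116422864, minus strand) works with Bag3 in the disposal of damaged contractile proteins. Its lowest, median and highest levels were 212, 249 and 263 CPM in sedentary controls, 244, 272 and 284 CPM in sedentary PBMT mice, 272, 408 and 516 CPM in fatigued controls, and 328, 421 and 554 CPM in fatigued PBMT mice. Fatigued and sedentary controls were close but apart, with fatigued replicate 2 at 272 CPM and sedentary replicate 1 at 263 CPM.

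Cryab (ENSMUSG00000032060, chr9:50751325-50756636, plus strand) encodes alpha-B crystallin, which binds desmin and titin. Its lowest, median and highest levels were 361, 412 and 647 CPM in sedentary controls, 344, 368 and 638 CPM in sedentary PBMT mice, 399, 547 and 685 CPM in fatigued controls, and 466, 556 and 699 CPM in fatigued PBMT mice. All 4 groups overlapped. Sedentary control replicate 3 (647 CPM) and sedentary PBMT replicate 2 (638 CPM) were the highest of their groups. Cryab overlaps Hspb2 on the opposite strand (mean 43.6 to 49.9 CPM over the groups, highest mouse 66.9 CPM). The strand setting of the counting is not given in the sources used here, so reads from the overlap cannot be told apart.

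Hspa5 (ENSMUSG00000026864, chr2:34771970-34777547, plus strand) encodes BiP, the HSP70 of the ER lumen and a target of the unfolded protein response. Its lowest, median and highest levels were 140, 153 and 202 CPM in sedentary controls, 138, 157 and 162 CPM in sedentary PBMT mice, 170, 177 and 192 CPM in fatigued controls, and 170, 178 and 204 CPM in fatigued PBMT mice. PBMT mice separated by project, but controls did not, because sedentary control replicates 4 (202 CPM) and 6 (183 CPM) lay inside or above the fatigued range.

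**Figure D1:**
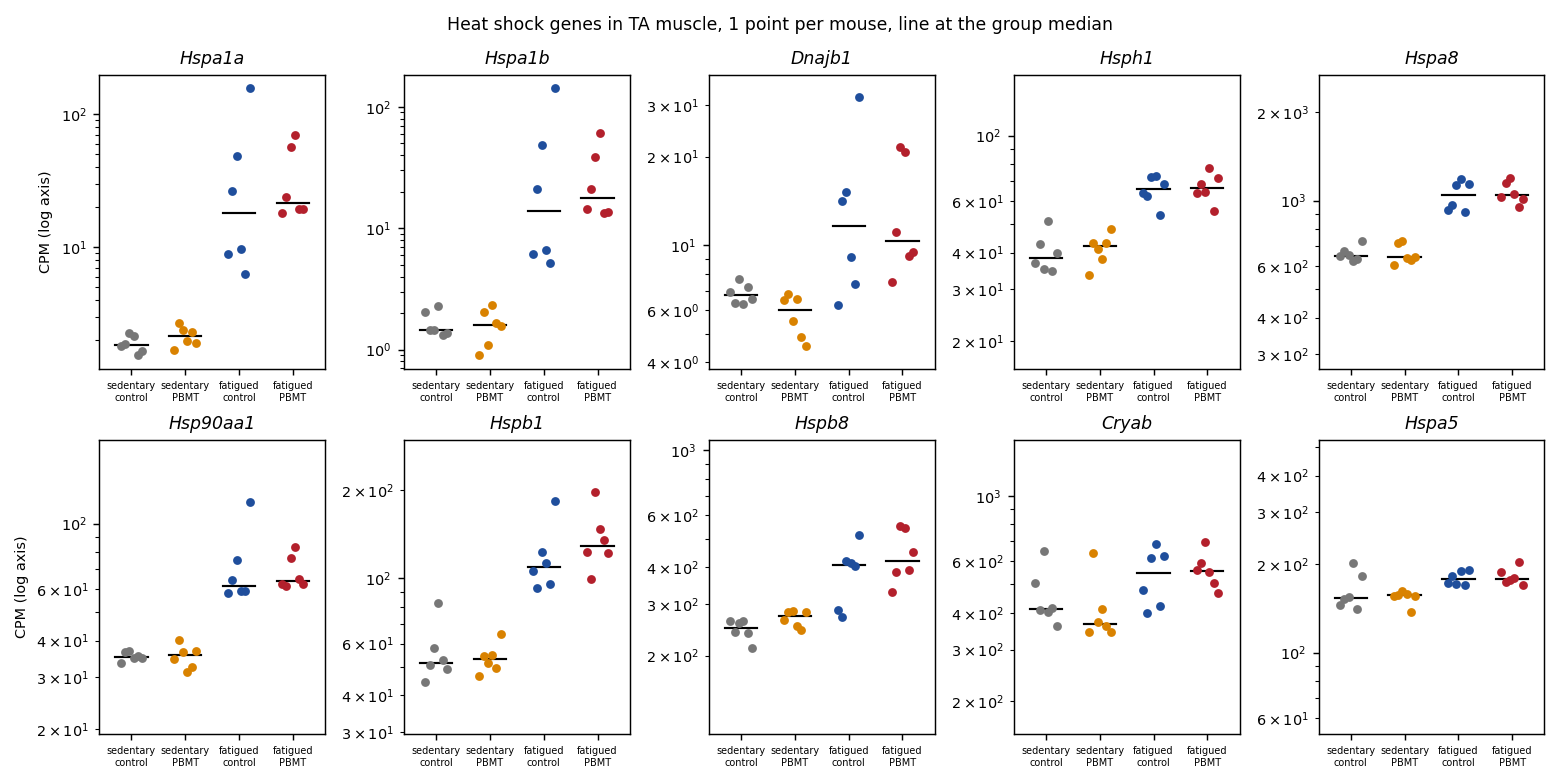
CPM of each gene on a log axis, with 1 point per mouse in the 4 groups of 6 and a line at the group median. Fatigued control replicate 6 is the top point for Hspa1a (157 CPM) and Hspa1b (143 CPM), and the sedentary points of both genes lie between 0.901 and 2.68 CPM.

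Levels of different genes were compared per kilobase of exon. In sedentary controls the order in mean CPM per kb was Cryab (309 ± 70.8), Hspa8 (153 ± 9.00), Hspb8 (126 ± 9.98), Hspb1 (54.6 ± 13.3), Hspa5 (38.5 ± 5.71), Hsp90aa1 (9.00 ± 0.310), Hsph1 (5.53 ± 0.871), Dnajb1 (2.13 ± 0.164), Hspa1a (0.634 ± 0.0929) and Hspa1b (0.589 ± 0.146), with SD over 6 mice. The ranges of Hspb1 and Hspa5 overlapped on this per-kb scale, as did those of Hspa1a and Hspa1b, and the other neighbours were separate. Sedentary PBMT mice had the same order of mean CPM per kb, with overlap of Hspa8 (154 ± 12.1) and Hspb8 (137 ± 8.72), and of Hspa1a (0.726 ± 0.123) and Hspa1b (0.570 ± 0.195). Cryab, Hspb1, Hspa5, Hsp90aa1, Hsph1 and Dnajb1 there had 279 ± 76.6, 52.0 ± 6.12, 36.5 ± 2.03, 8.99 ± 0.828, 5.67 ± 0.679 and 1.81 ± 0.297 CPM per kb (SD, n = 6).

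In fatigued controls the first 6 places in mean CPM per kb were held by Cryab (363 ± 80.5), Hspa8 (242 ± 28.3), Hspb8 (197 ± 47.2), Hspb1 (115 ± 32.2), Hspa5 (42.4 ± 2.33) and Hsp90aa1 (18.4 ± 6.03), SD over 6 mice. Next came Hspa1a (14.5 ± 19.7) and Hspa1b (13.7 ± 19.3), ahead of Hsph1 (9.01 ± 0.988) and Dnajb1 (4.36 ± 2.94) by mean CPM per kb. The places of Hspa1a and Hspa1b rested on replicate 6 (157 and 143 CPM, next mouse 48.6 and 48.2 CPM), and Hspa1b exceeded Hsph1 in only 2 of the 6 mice. Of neighbours in that order, only Hspb1 and Hspa5, and Hspa5 and Hsp90aa1, were separate in their ranges. In fatigued PBMT mice the order of mean CPM per kb was the same, with Cryab at 380 ± 54.3, Hspa8 at 248 ± 21.4, Hspb8 at 227 ± 47.0, Hspb1 at 133 ± 32.5, Hspa5 at 43.0 ± 2.88, Hsp90aa1 at 17.4 ± 2.31, Hspa1a at 11.6 ± 7.61, Hspa1b at 9.59 ± 6.79, Hsph1 at 9.21 ± 1.03 and Dnajb1 at 4.14 ± 1.95 (SD, n = 6). There the ranges overlapped for Hspa8 with Hspb8, Hspb8 with Hspb1, Hsp90aa1 with Hspa1a, Hspa1a with Hspa1b, and Hspa1b with Hsph1, and again Hspa1b exceeded Hsph1 in only 2 of the 6 mice.

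Fatigued and sedentary controls were compared to ask what the exhausting run was accompanied by in chaperone transcripts without light. The cytosolic chaperone transcripts described above, Cryab apart, were higher in fatigued muscle, and those of the inducible HSP70 genes most of all. Hspa1a rose from a mean of 1.88 ± 0.276 to 42.9 ± 58.3 CPM (SD, n = 6) and Hspa1b from 1.65 ± 0.408 to 38.4 ± 54.0 CPM (SD, n = 6), 22.8-fold (95% interval 8.19 to 63.3) and 23.2-fold (95% interval 7.62 to 70.9) in the model. Hsp90aa1, Hspb1 and Dnajb1 rose 2.05-fold, 2.11-fold and 2.04-fold, and Hsph1, Hspa8 and Hspb8 rose 1.63-fold, 1.58-fold and 1.57-fold. Cryab and the ER chaperone gene Hspa5 did not pass the test.

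At an adjusted p under 0.05 in edgeR, 8 of the 10 genes were higher and none lower, where 9.1% of the 15108 genes tested were higher and 18.6% passed in either direction. In 7 of the 10, every fatigued control lay above every sedentary control, as in 4.08% of all genes tested. Log2 fold changes of these 7 were 4.51 for Hspa1a (standard error, SE, 0.709, adjusted p = 1.70e-04), 4.54 for Hspa1b (SE 0.773, adjusted p = 3.78e-04), 0.70 for Hsph1 (SE 0.0997, adjusted p = 2.38e-05), 0.66 for Hspa8 (SE 0.0769, adjusted p = 2.85e-06), 1.03 for Hsp90aa1 (SE 0.131, adjusted p = 8.15e-06), 1.08 for Hspb1 (SE 0.169, adjusted p = 1.04e-04) and 0.65 for Hspb8 (SE 0.131, adjusted p = 0.00107), each higher in 6 of 6 mice. The exact permutation p was 0.00216 for each, the smallest that 6 mice against 6 can give (two-sided). Hspa1b and Hspa1a had the 3rd and 4th largest log2 fold changes of the 15108 genes. The median log2 fold change of the 10 genes was 0.87, and that of all genes tested was -0.0115. Cryab had a log2 fold change of 0.24 (SE 0.163, adjusted p = 0.334; exact permutation p = 0.238), with 1 fatigued mouse above all sedentary mice, and Hspa5 one of 0.14 (SE 0.0751, adjusted p = 0.196; exact permutation p = 0.119).

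Some of these values rested on single mice. Without fatigued control replicate 6 the log2 fold change of Hspa1a was 3.42 (SE 0.502, adjusted p = 1.37e-04) and that of Hspa1b 3.41 (SE 0.578, adjusted p = 5.19e-04), and those of Hsp90aa1 and Hspb1 were 0.85 (adjusted p = 5.40e-07) and 0.93 (adjusted p = 1.66e-04). Dnajb1, at 1.03 (SE 0.320, adjusted p = 0.0277; exact permutation p = 0.0325) with 4 fatigued mice above all sedentary controls and 1 under them all, was the least secure of the 8. It missed the threshold without fatigued control replicate 6 (log2 fold change 0.62, adjusted p = 0.108), and also without sedentary control replicate 2 (adjusted p = 0.0507) or 6 (adjusted p = 0.050005). Dnajb1 missed it too with no filter (1.05, adjusted p = 0.0625) and with the replicate number as a block (0.91, adjusted p = 0.0590). Its adjusted p ran from 0.0113 to 0.108 over all alternatives. Without sedentary control replicate 4, Hspa5 passed at 0.21 (SE 0.0645, adjusted p = 0.0195), in a range of 0.0195 to 0.490 over all alternatives.

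Fatigued and sedentary PBMT mice gave the same comparison in light-treated muscle, with other mice in both groups. All 10 chaperone transcripts were higher in fatigued muscle. Hspa1a rose from 2.15 ± 0.365 to 34.4 ± 22.6 CPM (SD, n = 6), 16.0-fold (95% interval 5.91 to 43.3), and Hspa1b from 1.598 ± 0.548 to 26.9 ± 19.0 CPM (SD, n = 6), 16.8-fold (95% interval 5.60 to 50.2). Hspb1 rose 2.56-fold, Dnajb1 2.29-fold and Hsp90aa1 1.93-fold, and Hspb8, Hsph1 and Hspa8 between 1.61-fold and 1.65-fold. Cryab and Hspa5 rose least, 1.36-fold and 1.18-fold.

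All 10 passed at an adjusted p under 0.05 in edgeR, where 14.1% of the 15108 genes tested were higher and 26.8% passed in either direction. In 9 of them, Cryab being the exception, all fatigued mice lay above all sedentary mice, as in 5.98% of genes tested, with the smallest exact permutation p of 0.00216. Log2 fold changes were 4.00 for Hspa1a (SE 0.690, adjusted p = 2.45e-04), 4.07 for Hspa1b (SE 0.760, adjusted p = 5.08e-04), 1.19 for Dnajb1 (SE 0.322, adjusted p = 0.00855), 0.70 for Hsph1 (SE 0.0996, adjusted p = 1.22e-05), 0.69 for Hspa8 (SE 0.0769, adjusted p = 4.61e-07), 0.95 for Hsp90aa1 (SE 0.131, adjusted p = 9.10e-06), 1.36 for Hspb1 (SE 0.170, adjusted p = 3.64e-06), 0.72 for Hspb8 (SE 0.131, adjusted p = 2.19e-04) and 0.24 for Hspa5 (SE 0.0751, adjusted p = 0.0210), each higher in 6 of 6 mice. Cryab, at 0.45 (SE 0.163, adjusted p = 0.0444; exact permutation p = 0.0216), had 1 fatigued mouse above the highest sedentary mouse, and lost its call in 11 of the 24 fits that left out 1 mouse, which were fatigued PBMT replicate 1, 2, 3, 4 or 5, sedentary PBMT replicate 1, 3, 4, 5 or 6, or sedentary control replicate 5 (adjusted p from 0.00313 to 0.110 over all alternatives). Without fatigued PBMT replicate 5, Hspa5 missed the threshold (adjusted p = 0.0635, range 0.00555 to 0.0635 over all alternatives). The median log2 fold change of the 10 genes was 0.84, beside 0.00210 over all genes tested. With Hspa1a and Hspa1b counted as 1 gene, the log2 fold change was 4.53 in control mice (SE 0.721, adjusted p = 1.93e-04) and 4.04 in PBMT mice (SE 0.704, adjusted p = 2.70e-04).

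Marker transcripts of other tissue components also differed between fatigued and sedentary mice, and their part in the chaperone differences was not tested. Beside the counts of markers called, 9.1% of all genes tested were higher and 9.49% lower in control mice, and 14.1% higher and 12.7% lower in PBMT mice. Fast fiber markers (12 genes, Myh4 highest in 3 groups and Atp2a1 in sedentary controls) summed to 145032 to 220090 CPM in sedentary controls, 150924 to 186224 in sedentary PBMT, 181738 to 233219 in fatigued control and 188796 to 229922 CPM in fatigued PBMT mice. Their difference had an exact permutation p of 0.00866 in control and 0.00216 in PBMT mice, and 5 and 3 of the 12 were called higher. Interstitial mesenchymal markers (6 genes, Col1a1 highest in fatigued mice) averaged 829, 704, 1242 and 1497 CPM in the same order of groups (exact permutation p = 0.0130 in control and 0.0130 in PBMT mice, n = 6 per group), with 1 and 5 of 6 called higher. Tendon markers (5 genes, Fmod highest) averaged 153, 157, 307 and 363 CPM (exact permutation p = 0.0303 and 0.00433), with 1 and 2 of 5 called higher. Slow fiber markers (8 genes, Myl3 or Atp2a2 highest) averaged 132, 125, 143 and 174 CPM, myeloid markers (8 genes, Lyz2 highest) 83.6, 57.8, 60.5 and 64.0 CPM, and endothelial markers (7 genes, Cdh5 highest) 320, 321, 355 and 363 CPM, with exact permutation p of 0.0823 or more between fatigued and sedentary mice for their sums. Single genes of these lists passed in both directions. Of the slow fiber markers 1 was called higher and 1 lower in control mice and 2 higher in PBMT mice, of the myeloid markers 2 lower in control mice and 4 higher and 2 lower in PBMT mice, and of the endothelial markers 2 higher and 1 lower in PBMT mice. Markers of erythrocytes (102, 98.6, 86.4 and 88.0 CPM, Hbb-bs highest), adipocytes (238, 232, 249 and 259 CPM, Fabp4 highest) and satellite cells (31.8, 34.3, 35.8 and 41.2 CPM, Cdh15 or Myod1 highest) had exact permutation p of 0.0909 or more, with 1 satellite cell marker called lower in PBMT mice. Keratinocyte markers (6 genes, Krt10 highest) averaged 2.94, 7.73, 2.19 and 1.65 CPM, lower in fatigued than in sedentary PBMT mice (exact permutation p = 0.0238; Krt10, the 1 gene tested, called lower). The sedentary PBMT mice ran from 1.61 to 27.9 CPM (SD 10.4), so their mean was carried by the highest mouse. Krt15 was at 0 in all fatigued control mice, and 2 of the 6 genes, Krt1 among them, were at 0 in all fatigued PBMT mice.

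The inducible HSP70 genes also varied widely between fatigued mice. In fatigued controls the SD of log2 CPM was 1.93 for Hspa1b and 1.78 for Hspa1a, the 15th and 23rd largest of 15108 genes, beside a median SD of 0.19 over all genes. In fatigued PBMT mice the SDs were 0.91 and 0.86, ranked 633 and 785, beside a median SD of 0.23 over all genes. The highest mouse exceeded the lowest 25.2-fold for Hspa1a and 27.6-fold for Hspa1b in fatigued controls, and 3.85-fold and 4.55-fold in fatigued PBMT mice. The fatigued control SDs and ratios include replicate 6, after which the next highest mouse stood at 48.6 CPM for Hspa1a and 48.2 CPM for Hspa1b, and they were not computed without it. Whether the spread differed between these groups was not tested. In sedentary controls the SD was 0.21 for Hspa1a (rank 9281) and 0.33 for Hspa1b (rank 5256), beside a median SD of 0.25, and in sedentary PBMT mice 0.24 (rank 5943) and 0.51 (rank 2113), beside a median of 0.19. Fatigued control replicate 6 was the highest of its group for 7 of the 10 genes (Hspa1a, Hspa1b, Dnajb1, Hsp90aa1, Hspb1, Hspb8 and Hspa5), and replicate 5 the lowest for 5 (Hspa1a, Hspa1b, Hsph1, Hspa8 and Hspa5). In fatigued PBMT mice, replicate 3 was highest for Dnajb1, Hspa8, Hspb1, Hspb8 and Cryab, and replicate 4 for Hspa1a, Hspa1b, Hsph1 and Hsp90aa1.

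Sedentary PBMT and control mice were compared to ask whether light alone, with its possible heating, left a trace in chaperone transcripts after 24 h. The inducible HSP70 genes were low in both groups, with a mean of 2.15 ± 0.365 CPM with PBMT and 1.88 ± 0.276 CPM in controls for Hspa1a (SD, n = 6). Constitutive Hspa8 had means of 660 ± 52.1 and 659 ± 38.7 CPM, and Hsp90aa1 35.3 ± 3.25 and 35.4 ± 1.22 CPM (SD, n = 6). No chaperone separated the groups, and log2 fold changes lay between -0.23 for Dnajb1 and 0.20 for Hspa1a.

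In edgeR, 0 of the 10 genes passed at an adjusted p under 0.05 (0.0282% of the 14177 genes tested did), 0 at an unadjusted p under 0.05 (1082 of all genes) and 0 with DESeq2 (62 of all genes). None of the 10 had groups without overlap, as 0.48% of genes did. Hspa1a had a log2 fold change of 0.20 (SE 0.151, 95% interval -0.12 to 0.52, adjusted p = 0.718; exact permutation p = 0.180), with 3 PBMT mice above all controls. For Hspa1b it was -0.04 (95% interval -0.53 to 0.45), and for the summed pair 0.09 (SE 0.150, adjusted p = 0.871). Intervals were narrowest for Hsp90aa1 (-0.14 to 0.15), Hspa8 (-0.14 to 0.16) and Hspb8 (-0.02 to 0.28), and for the latter 4 PBMT mice lay above all controls (log2 fold change 0.13, adjusted p = 0.665; exact permutation p = 0.0628). Dnajb1 came nearest to the threshold, at -0.23 (SE 0.112, 95% interval -0.47 to 0.01, adjusted p = 0.648; exact permutation p = 0.0541), with 3 PBMT mice under all controls. Hsph1 (0.04, 95% interval -0.17 to 0.26), Hspb1 (-0.06, 95% interval -0.32 to 0.20), Cryab (-0.14, 95% interval -0.48 to 0.20) and Hspa5 (-0.07, 95% interval -0.25 to 0.11) had adjusted p of 0.820 to 0.917. Of the 10 log2 fold changes 5 were above and 5 under 0, with a median of -0.0174, beside -0.00186 over all genes tested.

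The number of genes called across the genome in sedentary muscle, 4, was itself unsteady. It was 18 without sedentary control replicate 4, 20, 10 and 7 without sedentary PBMT replicate 5, 2 and 4, and 2 without sedentary control replicate 1, 2 or 6. In each of these fits 0 of the 10 chaperones passed. Without sedentary control replicate 4, however, Dnajb1 (log2 fold change -0.26, adjusted p = 0.504) and Hspb8 (0.14, adjusted p = 0.520) had an unadjusted p of 0.0332 and 0.0396.

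Fatigued PBMT and control mice were compared to ask whether light before the run went with a different chaperone level after it. Each mouse ran until exhausted, so run length was not held equal between the groups, and light and run length cannot be told apart here. Medians lay close, 21.6 CPM with PBMT and 18.1 CPM without for Hspa1a, and 10.3 and 11.6 CPM for Dnajb1. Group means pointed the other way for Hspa1a, 34.4 ± 22.6 CPM with PBMT and 42.9 ± 58.3 CPM in controls (SD, n = 6), with fatigued control replicate 6 at 157 CPM. Each of the 10 genes had overlapping groups. For Hspb1 and Hspb8 the means were 137 ± 33.5 and 443 ± 91.7 CPM with PBMT, and 119 ± 33.2 and 385 ± 92.1 CPM in controls (SD, n = 6).

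In edgeR, 0 of the 10 genes passed, as did 0 of the 14574 genes tested (0.0%). At an unadjusted p under 0.05 these were 0 of 10 and 230 of all genes, and with DESeq2 0 of 10 and 2 of all genes. Groups were without overlap in 0 of 10 and in 0.0274% of all genes. Adjusted p was 1.00 for each of the 10. The inducible genes were measured loosely here, with log2 fold changes of -0.32 for Hspa1a (SE 0.781, 95% interval -2.03 to 1.40; exact permutation p = 0.632), -0.52 for Hspa1b (SE 0.836, 95% interval -2.35 to 1.32; exact permutation p = 0.716) and -0.07 for Dnajb1 (SE 0.419, 95% interval -0.99 to 0.84; exact permutation p = 0.946). On the linear scale the interval of Hspa1a spanned 0.245-fold to 2.63-fold. For the abundant genes intervals were narrower, with Hsph1 at 0.03 (-0.15 to 0.22), Hspa8 at 0.03 (-0.15 to 0.21), Cryab at 0.07 (-0.23 to 0.36) and Hspa5 at 0.02 (-0.10 to 0.15). Hsp90aa1 stood at -0.08 (95% interval -0.45 to 0.28), Hspb1 at 0.21 (-0.19 to 0.61) and Hspb8 at 0.20 (-0.16 to 0.57). Over the 10 genes the median log2 fold change was 0.0259, beside 0.00406 over all genes tested.

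The sign of several values changed with the mice kept and with the model. Without fatigued control replicate 6 the log2 fold changes were 0.78 for Hspa1a (SE 0.601), 0.62 for Hspa1b (SE 0.667), 0.35 for Dnajb1 (SE 0.338) and 0.12 for Hsp90aa1 (SE 0.0968), and Hspb1 moved to 0.37 (SE 0.147, unadjusted p = 0.0256). Dnajb1 was also above 0 without fatigued PBMT replicate 1 (0.0461), 5 (0.0113) or 6 (0.00656), and Hsph1 under 0 without fatigued control replicate 5 (-0.0180) or fatigued PBMT replicate 4 (-0.0131). With all mice kept and the replicate number as a block, the log2 fold changes were 0.50 for Hspa1a (SE 0.829), 0.42 for Hspa1b (SE 0.928) and 0.0445 for Dnajb1 (SE 0.382). Adjusted p remained 1.00 for each.

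Whether the PBMT difference itself differed between fatigued and sedentary muscle was tested as an interaction over all 24 mice. In edgeR, 0 of the 10 genes passed (0.00662% of 15108 genes did), 0 at an unadjusted p under 0.05 (665 of all genes) and 0 with DESeq2 (3 of all genes). Hspb1 had the largest positive value, 0.28 (95% interval -0.21 to 0.77), and Hspa1a and Hspa1b the largest negative ones, -0.51 (95% interval -2.43 to 1.41) and -0.47 (95% interval -2.59 to 1.65). Values of the other 7 lay between -0.08 for Hsp90aa1 and 0.21 for Cryab, and adjusted p was 0.946 to 0.997. The call of Cryab and Hspa5 in PBMT mice and not in controls is therefore not shown to be a difference between those mice. Without fatigued control replicate 6 the interaction was 0.58 for Hspa1a, 0.66 for Hspa1b and 0.44 for Hspb1 (unadjusted p = 0.0433, adjusted p = 0.970), and without sedentary PBMT replicate 2 the genes called over all 15108 numbered 3.

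**Figure D2:**
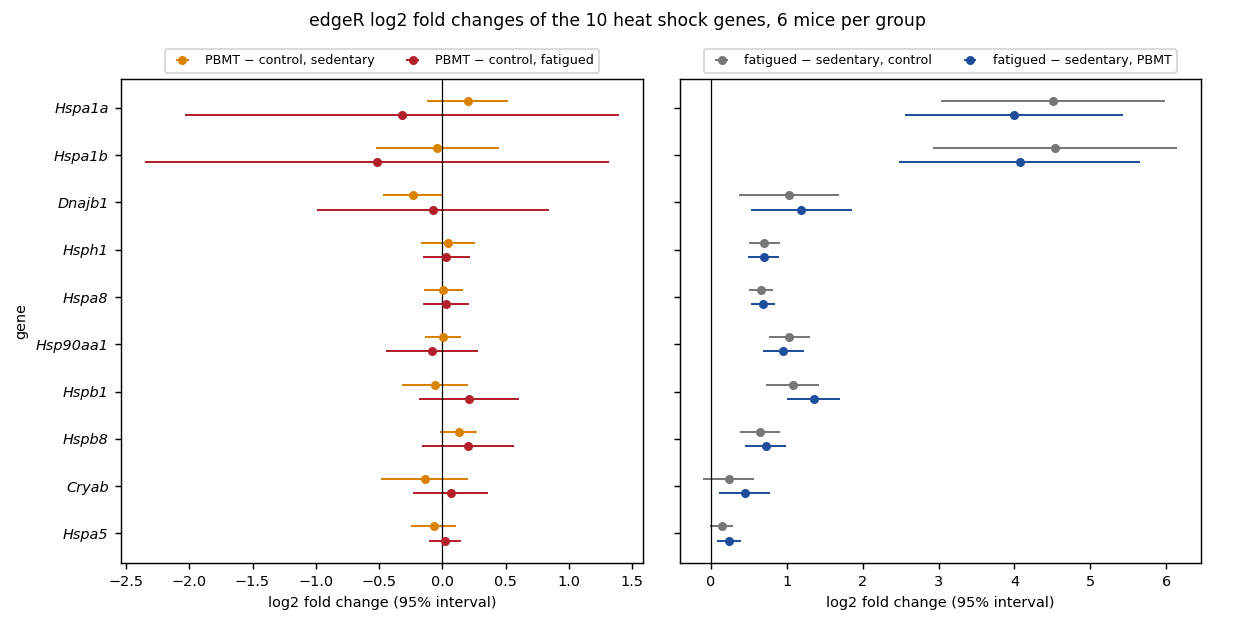
Log2 fold changes (horizontal axis) of the 10 genes (vertical axis), PBMT minus control on the left and fatigued minus sedentary on the right, with 6 mice per group; points are edgeR estimates and bars 95% intervals. On the left all intervals span 0, and on the right Hspa1a and Hspa1b lie at 4.00 to 4.54.

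Other chaperones and stress genes, 83 in all with 79 tested over the 24 mice, were taken from lists of the same pathways. Between PBMT and control, 0 passed in edgeR in either sedentary or fatigued muscle, beside 0.0282% and 0.0% of all genes tested. Between fatigued and sedentary mice 15 were higher and 2 lower in controls (21.5%), and 23 higher and 2 lower in PBMT mice (31.6%), beside 18.6% and 26.8% of all genes. Their median log2 fold changes were 0.12 and 0.14. In the interaction 0 of the 79 passed, beside 0.00662% of all genes tested. A call in PBMT mice only, or in controls only, is therefore not shown to be a difference between those mice. Where more than 6 genes of a list passed, 6 were named, so a gene named for 1 side may have passed on the other. Of 36 cytosolic chaperones and co-chaperones, 11 were higher in controls and 15 in PBMT mice, where 9.1% and 14.1% of all genes tested were higher. Bag3, the co-chaperone that partners Hspb8, rose from 109 ± 12.4 to 172 ± 20.96 CPM in controls (log2 fold change 0.65, SE 0.0947, adjusted p = 3.37e-05) and from 106 ± 14.05 to 179 ± 19.0 CPM in PBMT mice (0.76, SE 0.0949, adjusted p = 2.22e-06; SD, n = 6).

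Among the other cytosolic genes named by rule, Hspa12b, an HSP70 relative of endothelial cells, rose by a log2 fold change of 0.92 in controls (adjusted p = 2.53e-06; 15.1 to 28.6 CPM) and 1.01 in PBMT mice (adjusted p = 1.94e-07; 14.0 to 28.1 CPM). Fkbp5, an HSP90 co-chaperone induced by glucocorticoids, rose by 0.79 (adjusted p = 0.00170) and 0.95 (adjusted p = 1.84e-04). The HSP40 genes Dnaja1 (0.57, adjusted p = 7.86e-04, and 0.58, adjusted p = 4.06e-04) and Dnajb4 (0.48, adjusted p = 0.00493, and 0.49, adjusted p = 0.00259) rose in controls and in PBMT mice. Stip1, which links HSP70 to HSP90, rose by 0.43 in controls (adjusted p = 1.496e-05), and the HSP40 gene Dnajb2 by 0.41 in PBMT mice (adjusted p = 4.02e-04).

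Of 25 ER chaperone and unfolded protein response genes tested, 4 were higher in controls and 8 in PBMT mice, with 0 lower, again beside 9.1% and 14.1% of all genes tested. Calr, the lectin chaperone calreticulin, rose from 125 ± 18.1 to 158 ± 9.62 CPM in controls (log2 fold change 0.34, adjusted p = 0.00292) and from 122 ± 5.35 to 157 ± 15.9 CPM in PBMT mice (0.36, adjusted p = 0.00107; SD, n = 6). Ddit3, a transcription factor induced late in that response, rose by 0.68 (adjusted p = 0.0140) and 0.65 (adjusted p = 0.0120), and the disulfide isomerase gene Pdia6 by 0.33 (adjusted p = 0.0125) and 0.37 (adjusted p = 0.00358). Dnajb11, an HSP40 of the ER, rose by 0.16 in controls (adjusted p = 0.0248). In PBMT mice Edem1, which directs glycoproteins to degradation, rose by 0.51 (adjusted p = 0.00756), the disulfide isomerase gene Pdia3 by 0.44 (adjusted p = 0.00943) and Manf by 0.34 (adjusted p = 0.0109). The interaction of Edem1 was 0.25 (adjusted p = 0.946 in edgeR).

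The other lists held few calls. Of 10 mitochondrial chaperones and proteases 0 were higher and 2 lower in both comparisons, beside 9.49% and 12.7% of all genes lower, the protease subunit gene Clpx at -0.33 (adjusted p = 0.00208; 93.6 to 74.3 CPM) and -0.31 (adjusted p = 0.00255; 92.5 to 74.8 CPM), and the co-chaperone gene Grpel2 at -0.28 (adjusted p = 0.00520) and -0.30 (adjusted p = 0.00188). None of 4 other small heat shock genes passed, where 18.6% and 26.8% of all genes passed in either direction, with Hspb7 at 0.29 (adjusted p = 0.303) in controls and 0.49 (adjusted p = 0.0569) in PBMT mice, Hspb2 at -0.12 (adjusted p = 0.415) in controls and Hspb6 at 0.27 (adjusted p = 0.118) in PBMT mice. None of the 4 genes tested on the list of heat shock factors, which also holds Hsbp1, passed, beside the same shares of all genes. Hsf1, the factor itself, had means of 35.1 and 39.0 CPM in sedentary and fatigued controls (0.15, adjusted p = 0.222) and 35.0 and 40.3 CPM in PBMT mice (0.20, adjusted p = 0.0794), and Hsf2 stood at -0.09 (adjusted p = 0.412) and -0.19 (adjusted p = 0.0577).

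With light in sedentary muscle, the genes of these lists with the smallest p were Dnajb5 (-0.17, adjusted p = 0.580) and Unc45a (-0.19, adjusted p = 0.673), Atf6 (0.18, adjusted p = 0.648) and Creld2 (-0.18, adjusted p = 0.691), Hsf2 (0.15, adjusted p = 0.638) and Hsbp1 (-0.05, adjusted p = 0.788), Dnaja3 (-0.08, adjusted p = 0.691) and Clpp (-0.13, adjusted p = 0.691), and Hspb2 (-0.19, adjusted p = 0.670) and Hspb3 (-0.09, adjusted p = 0.823). In fatigued muscle they were Bag2 (0.10) and St13 (-0.06), Xbp1 (0.10) and Syvn1 (-0.08), Hsf4 (-0.09) and Hsf1 (0.05), Lonp1 (-0.06) and Dnaja3 (-0.03), and Hspb7 (0.17) and Hspb3 (0.09), each at an adjusted p of 1.00.

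Fatigued mice with much Hspa1a also had much Hspa1b, Dnajb1 and Hsp90aa1. After the group mean of log2 CPM was removed, the deviations of Hspa1a and Hspa1b correlated over the 24 mice with Pearson's r = 0.962 (permutation p = 3.00e-05) and Spearman's rho = 0.890 (permutation p = 6.00e-05), Benjamini-Hochberg adjusted p = 0.00135 and 0.00270 over 45 pairs. For Hspa1a and Dnajb1 r was 0.918 (permutation p = 1.20e-04, adjusted p = 0.00180) and rho 0.854 (permutation p = 9.40e-04, adjusted p = 0.0105), and for Hspa1a and Hsp90aa1 r was 0.907 (permutation p = 7.00e-05, adjusted p = 0.00157) and rho 0.808 (permutation p = 2.10e-04, adjusted p = 0.00472). Without the 2 mice farthest from the median of Hspa1a (fatigued control replicates 5 and 6) these values of r were 0.924, 0.869 and 0.825. Within the 12 fatigued mice they were 0.994, 0.955 and 0.944, and within the 12 sedentary mice 0.423, 0.0602 and 0.412.

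Hspa1b, Dnajb1 and Hsp90aa1 were related in the same way. For Hspa1b and Dnajb1 r was 0.879 (permutation p = 2.10e-04, adjusted p = 0.00236) and rho 0.796 (permutation p = 0.00114, adjusted p = 0.0105), with r = 0.787 without fatigued control replicates 5 and 6, 0.941 within fatigued and 0.00520 within sedentary mice. For Hspa1b and Hsp90aa1 r was 0.838 (permutation p = 8.70e-04, adjusted p = 0.00652) and rho 0.640 (permutation p = 0.00703, adjusted p = 0.0395), with r = 0.679 without the same 2 mice, 0.934 within fatigued and -0.214 within sedentary mice. For Dnajb1 and Hsp90aa1 r was 0.846 (permutation p = 4.80e-04, adjusted p = 0.00432) and rho 0.698 (permutation p = 0.00265, adjusted p = 0.0199), with r = 0.722 without fatigued control replicates 1 and 6 (the farthest in Dnajb1), 0.907 within fatigued and 0.105 within sedentary mice. Hsph1 did not pass with any of these 4 genes, with r = 0.339 to Hspa1a, 0.380 to Hspa1b, 0.137 to Dnajb1 and 0.258 to Hsp90aa1 (adjusted p = 0.129 to 0.576). With Dnajb1 its r was 0.419 within fatigued mice (permutation p = 0.198) and -0.669 within sedentary mice (permutation p = 0.0107).

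Of the 45 pairs, 12 passed at an adjusted p under 0.05 by Pearson's r, all positive, and 9 by Spearman's rho, and the median r was 0.432. Hspa8 paired with Cryab (r = 0.579, permutation p = 0.00723, adjusted p = 0.0277; rho = 0.634, permutation p = 0.00408, adjusted p = 0.0262), with r = 0.484 without the 2 mice farthest in Hspa8 (fatigued control replicate 4 and fatigued PBMT replicate 3), 0.906 within fatigued and 0.221 within sedentary mice. Hspb1 paired with Hsp90aa1 (r = 0.673, permutation p = 0.00256, adjusted p = 0.0165; rho = 0.659, permutation p = 0.00117, adjusted p = 0.0105; r = 0.522 without fatigued control replicate 6 and fatigued PBMT replicate 4, 0.827 within fatigued and 0.201 within sedentary mice). It also paired with Hspb8 (r = 0.634, permutation p = 0.00349, adjusted p = 0.0196; rho = 0.590, permutation p = 0.00850, adjusted p = 0.0425; r = 0.567 without fatigued control replicate 6 and sedentary control replicate 4, 0.733 within fatigued and 0.389 within sedentary mice). Hspb8 and Hsp90aa1 passed by r alone (r = 0.666, permutation p = 0.00739, adjusted p = 0.0277; rho = 0.537, permutation p = 0.0254, adjusted p = 0.0952; r = 0.497 without fatigued control replicate 6 and fatigued PBMT replicate 4, 0.683 within fatigued and 0.493 within sedentary mice).

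Pairs of Hspb1 with Hspa1a (r = 0.629, permutation p = 0.00407, adjusted p = 0.0203; rho = 0.567, permutation p = 0.0143, adjusted p = 0.0646) and with Hspa1b (r = 0.605, permutation p = 0.00526, adjusted p = 0.0237; rho = 0.550, permutation p = 0.0167, adjusted p = 0.0685) rested on fatigued control replicates 5 and 6. Without these mice r was 0.417 (permutation p = 0.0585) and 0.386 (permutation p = 0.0691), beside 0.746 and 0.693 within fatigued and 0.356 and 0.410 within sedentary mice. Hspa5 was in none of the 12 pairs, with its highest r, 0.433, to Hspb1 (permutation p = 0.0485, adjusted p = 0.129; rho = 0.325, permutation p = 0.142, adjusted p = 0.194). Each of the 12 pairs had an unadjusted permutation p under 0.05 within the fatigued mice and none within the sedentary mice, where 4 other pairs did (Hsph1 with Dnajb1 and with Hspb1, and Cryab with Hspa1a and with Dnajb1). Whether r differed between projects was not tested. Hspa1a and Hspa1b had few counts in sedentary mice (group means 76.5 to 106), and the part of counting noise in their r there was not tested.

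**Figure D3:**
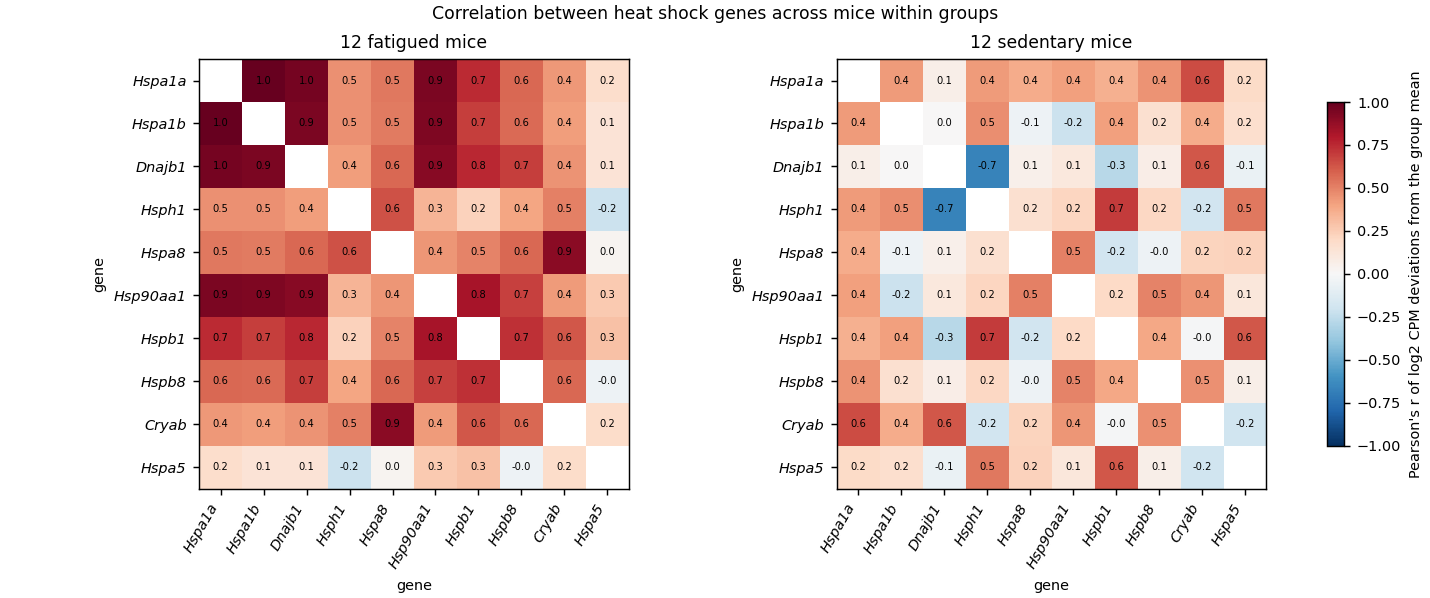
Pearson's r between each pair of genes (both axes), from deviations of log2 CPM from the group mean, in the 12 fatigued mice on the left and the 12 sedentary mice on the right. The block of Hspa1a, Hspa1b, Dnajb1 and Hsp90aa1 is near 1 on the left and pale on the right.

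Genes most like the inducible chaperones across mice were found from an index, the mean standardized deviation of Hspa1a, Hspa1b, Dnajb1, Hsph1 and Hsp90aa1 from the group mean (24 mice, Pearson's r as a description). The 8 with the highest r outside the 10 chaperones were Arid5b (0.858), Adprhl1 (0.780), Xirp1 (0.762), Otud1 (0.748), Klhl40 (0.746), Trib1 (0.733), Cavin4 (0.721) and Arc (0.705). Within the 12 fatigued mice their r was 0.790 to 0.913, but within the 12 sedentary mice it was 0.732 for Xirp1, 0.696 for Klhl40, 0.497 for Adprhl1 and 0.297 for Otud1, and under 0 for Arid5b (-0.0655), Cavin4 (-0.156), Arc (-0.279) and Trib1 (-0.436). Of these, Xirp1 averaged 67.8 and 632 CPM in sedentary and fatigued controls (log2 fold change 3.22, adjusted p = 9.19e-07), and Arid5b 13.7 and 40.3 CPM (1.55, adjusted p = 1.13e-04). Otud1 (2.32, adjusted p = 0.00105), Klhl40 (1.30, adjusted p = 6.03e-05), Trib1 (0.92, adjusted p = 0.00376) and Adprhl1 (0.45, adjusted p = 0.0391) were higher too. For Cavin4 the log2 fold change was 0.11 (adjusted p = 0.352) and for Arc 0.11 (adjusted p = 0.784). In PBMT mice the same 6 were higher (log2 fold changes 0.52 to 3.26), and Cavin4 (0.0166, adjusted p = 0.902) and Arc (-0.31, adjusted p = 0.368) did not pass. The 5 genes most like Hspa5 were Ppp4c (0.773), Calr (0.764), Rpn2 (0.762), Rpl6l (0.761) and Pop1 (0.760). In the same order, r was 0.579, 0.633, 0.790, 0.452 and 0.777 within the 12 fatigued mice. Within the 12 sedentary mice it was 0.824, 0.839, 0.815, 0.883 and 0.755. Calr and Rpn2 were higher in fatigued than in sedentary controls, by 0.34 (adjusted p = 0.00292) and 0.32 (adjusted p = 0.00210), and Rpl6l was lower (-0.74, adjusted p = 0.0204; 1.06 to 0.632 CPM). Ppp4c (-0.20, adjusted p = 0.304) and Pop1 (0.32, adjusted p = 0.121) did not pass. In PBMT mice Calr (0.36, adjusted p = 0.00107), Rpn2 (0.32, adjusted p = 0.00131) and Pop1 (0.50, adjusted p = 0.0122) were higher, and Rpl6l (-0.13, adjusted p = 0.703) and Ppp4c (-0.0211, adjusted p = 0.923) did not pass.

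Promoter windows of 300 bases around the start of transcription were matched in RefSeq (GRCm38.p6) for 7 of the 10 genes, in 9 windows. They were searched for heat shock elements of 2 units, GAANNTTC or TTCNNGAA, each of which is its own reverse complement and so covers both strands, for elements of 3 alternating units, and for the ER stress response element, CCAAT and CCACG 9 bases apart, on both strands. A 3-unit element contains 2-unit elements that overlap. Of 32851 windows, 7.86% held GAANNTTC, 8.52% TTCNNGAA and 15.1% either, 0.597% held 3 units and 0.119% the ER element. A 2-unit element was found in 5 of the 7 genes, Hspa1a, Hspa1b, Hsph1, Hspb1 and Hspb8, and 3 units only in Hsph1. The ER element was found only in Hspa5, and no match in the 2 windows of Dnajb1. The Hspa1a and Hspa1b windows differ at 4 of 300 bases. A match is a description of the letters, not of binding. The windows of 4 genes are printed 5′ to 3′ with matches in capitals, to show the elements in an HSP70, an HSP110, a small heat shock protein and the ER gene: Hspa1a at chr17:34972107-34972406 (minus strand), Hsph1 at chr5:149636266-149636565 (minus strand), Hspb1 at chr5:135887669-135887968 (plus strand) and Hspa5 at chr2:34771840-34772139 (plus strand).
Hspa1a: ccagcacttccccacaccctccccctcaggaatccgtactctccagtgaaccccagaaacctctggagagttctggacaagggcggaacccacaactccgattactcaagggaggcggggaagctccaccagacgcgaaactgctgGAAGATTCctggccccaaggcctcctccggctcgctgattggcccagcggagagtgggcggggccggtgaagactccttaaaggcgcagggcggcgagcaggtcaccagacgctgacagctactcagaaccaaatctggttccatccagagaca
Hsph1: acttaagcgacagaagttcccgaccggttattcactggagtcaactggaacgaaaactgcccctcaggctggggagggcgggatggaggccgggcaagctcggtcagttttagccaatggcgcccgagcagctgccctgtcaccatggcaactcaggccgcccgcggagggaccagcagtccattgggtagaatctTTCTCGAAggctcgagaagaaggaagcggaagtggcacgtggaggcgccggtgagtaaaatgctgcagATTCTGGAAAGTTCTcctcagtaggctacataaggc
Hspb1: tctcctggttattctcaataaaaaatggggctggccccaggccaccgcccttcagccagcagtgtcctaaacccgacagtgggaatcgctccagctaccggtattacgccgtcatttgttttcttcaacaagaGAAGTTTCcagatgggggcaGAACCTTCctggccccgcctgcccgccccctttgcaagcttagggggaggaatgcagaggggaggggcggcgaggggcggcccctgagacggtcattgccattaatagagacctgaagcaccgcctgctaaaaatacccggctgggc
Hspa5: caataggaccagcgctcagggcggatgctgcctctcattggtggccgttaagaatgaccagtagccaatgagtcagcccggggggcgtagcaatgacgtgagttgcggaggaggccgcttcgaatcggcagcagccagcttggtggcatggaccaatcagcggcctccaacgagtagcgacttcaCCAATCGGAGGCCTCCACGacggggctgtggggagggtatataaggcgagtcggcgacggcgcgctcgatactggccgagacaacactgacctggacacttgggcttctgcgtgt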

How the data were processed

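TA muscle RNA of 24 mice was analysed, and replicates were separate mice. The values are whole-number counts per gene, as deposited by the authors, without normalization or pooling. The submitters' processing notes name Trimmomatic, STAR 2.7.1a, Picard 2.20.4, StringTie 2.0.4, featureCounts 1.6.0, HTSeq and GRCm38. Which tool gave the counts, and its strand setting, are not given in the sources used here. Of 55487 identifiers, 55141 matched GENCODE M21.

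Tests were run in R 4.3.3 with edgeR 4.0.16: TMM, filterByExpr with a minimum count of 10, and robust two-sided quasi-likelihood tests, with p adjusted by Benjamini-Hochberg (threshold 0.05, every gene tested). PBMT and control mice were compared within each project, and other comparisons used all 24 mice in 1 model. TMM-scaled totals also gave CPM, and log2 CPM had a prior count of 2. Single genes were also tested by exact permutation, and correlations by 100000 permutations within groups.

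The 10 genes are named in every comparison. From each other chaperone list, called genes were named (at most the 6 largest log2 fold changes) or, with none, the 2 of smallest p, and from the marker lists given the most abundant gene. Krt1, Krt15 and the sequence partners were named after their values were seen. Genes and lists were chosen with earlier results of these data known.

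Alternatives tried were total counts or DESeq2 size factors in place of TMM, no filter, a filter of 10 or more counts in each sample, DESeq2 1.42.0, 1 model of all mice or only the 12 compared, a replicate block, the summed Hspa1a and Hspa1b, and leaving out each mouse.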

Additional observations from a re-analysis of the deposited data

Results flagged for a closer look

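In 8 of 40 groups of 6 mice (10 genes in 4 groups) the gap between 1 mouse and the nearest other, as a share of the range of the group, was above Dixon's 95% critical value. For normally distributed values, chance gives this in about 1 group in 20, or 2 of 40. The gap was taken on CPM and not on log2 CPM, where high values stand out less. On that scale Hspa1a in fatigued control replicate 6 was 7.30, with the next mouse at 5.60 and the lowest at 2.64. So 8 groups beside 2 are not shown to be more than chance gives. Of the 8, 5 came from fatigued control replicate 6, so they are not separate events: Hspa1a at 157.4 CPM (next mouse 48.6), Hspa1b at 143.4 CPM (next 48.2), Dnajb1 at 31.8 CPM (next 15.2), Hsp90aa1 at 118.9 CPM (next 75.4) and Hspb1 at 182.8 CPM (next 123). The other 3 were Hspb1 in sedentary control replicate 4 at 82.8 CPM (next 58.0), Cryab in sedentary PBMT replicate 2 at 638.4 CPM (next 414) and, as a low value, Hspa5 in sedentary PBMT replicate 5 at 137.6 CPM (next 156).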

How the results depend on the processing

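Between fatigued and sedentary mice no log2 fold change of the 10 genes changed sign under any alternative (0 of 72 values in controls and 0 of 72 in PBMT mice, and 0 of 240 in each with 1 mouse left out). Calls were lost for Dnajb1 in controls (adjusted p = 0.0625 with no filter, range 0.0113 to 0.108) and for Cryab in PBMT mice (adjusted p = 0.0993 with no filter and 0.0718 on total counts, range 0.00313 to 0.110), and for Hspa5 in PBMT mice without fatigued PBMT replicate 5 (adjusted p = 0.0635). Hspa5 gained a call in controls without sedentary control replicate 4 (adjusted p = 0.0195). Between PBMT and control, and in the interaction, 0 of the 10 genes passed under any alternative. Counts were lowest for Hspa1a and Hspa1b in sedentary mice, down to 45, and the effect of depth was not tested.

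Signs near 0 turned, and the cause was not tested. In sedentary muscle, total counts gave log2 fold changes of -0.0301 for Hspa8 and -0.0332 for Hsp90aa1, at least 10 counts in every sample -0.00287 and 1 model of all mice -0.00133 for Hsp90aa1, and the summed pair 0.0937 in place of Hspa1b. In the interaction, total counts gave 0.0383 for Hsph1. The correlation of Hspa1b with Hsp90aa1 was -0.214 within the 12 sedentary mice. Genes called in sedentary muscle numbered 16 with no filter, 62 with DESeq2 and 1 in 1 model of all mice; in fatigued muscle 2 with DESeq2; in the interaction 3 with DESeq2.

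No label says that replicate numbers pair the mice, and the treadmill session of each mouse is not given. Same-numbered mice deviated together with r from -0.07 to 0.07 in sedentary muscle, where 0 of 6 were most alike with their own number, and from -0.08 to 0.33 in fatigued muscle, where 4 of 6 were above 0.1 and 3 of 6 most alike with their own number. With the replicate block, genes called were 11 in sedentary and 1 in fatigued muscle, log2 fold changes of PBMT in fatigued muscle were 0.50 for Hspa1a, 0.42 for Hspa1b and 0.0445 for Dnajb1, the interaction of Hspa1b was 0.0858, and Dnajb1 lost its call between fatigued and sedentary controls (adjusted p = 0.0590).

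With 1 mouse left out, genes called ran from 2 to 20 in sedentary muscle and from 1 to 3 in the interaction. Log2 fold changes of PBMT in fatigued muscle ran from -0.64 to 0.78 for Hspa1a, -0.93 to 0.62 for Hspa1b, -0.27 to 0.35 for Dnajb1, -0.0180 to 0.0796 for Hsph1, -0.00490 to 0.0705 for Hspa8, -0.14 to 0.12 for Hsp90aa1, -0.00598 to 0.15 for Cryab and -0.0155 to 0.0404 for Hspa5. In sedentary muscle they ran from -0.19 to 0.0797 for Hspa1b, -0.00509 to 0.12 for Hsph1, -0.0250 to 0.0351 for Hspa8, -0.0346 to 0.0320 for Hsp90aa1 and -0.12 to 0.0737 for Hspb1. In the interaction they ran from -0.84 to 0.58 for Hspa1a, -0.89 to 0.66 for Hspa1b, -0.0360 to 0.58 for Dnajb1, -0.0906 to 0.0385 for Hsph1, -0.0154 to 0.0666 for Hspa8, -0.15 to 0.11 for Hsp90aa1 and -0.00726 to 0.17 for Hspb8.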
